A study of Mus musculus with 12 samples.

Results

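Chaperonins are barrel-shaped chaperones that enclose an unfolded protein and use ATP to fold it. The cytosolic chaperonin CCT (also called TRiC) is built from paralogous subunits encoded by Tcp1 and the Cct genes and is best known for folding actin and tubulin, both of which the heart muscle cell needs for its contractile and cytoskeletal filaments. In mitochondria the same task falls to HSP60, encoded by Hspd1, with its lid HSP10, encoded by Hspe1, and HSP60 and HSP10 are also classical heat shock genes. The 10 genes described here were the 8 CCT subunit genes (Tcp1, Cct2, Cct3, Cct4, Cct5, Cct6a, Cct7 and Cct8) and Hspd1 and Hspe1, chosen by symbol among the 52858 genes of the deposited tables, and all 10 were measured in every library.

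RNA was sequenced from mouse hearts as 12 libraries in 4 groups of 3. C57-non-IR and C57-IR hearts came from C57BL/6J mice, and Slit2-non-IR and Slit2-IR hearts from Slit2-Tg mice. Slit2-Tg mice carry a full-length human Slit2 cDNA under the CMV promoter, a viral promoter active in many cell types. Their strain is labelled C57BL/6J, and per the methods the line was made by injection into C57 × CBA hybrid oocytes. The effects of the transgene and of any other difference between the lines cannot be told apart. All hearts were excised and perfused on a Langendorff apparatus. IR hearts were perfused for 20 min, deprived of flow for 20 min and reperfused for 40 min, whereas non-IR hearts were perfused for 80 min without interruption, so every group shares the excision and the buffer perfusion. The age and sex of the animals are not given in the labels. The methods state male mice, with an age range given for the study as a whole and not per heart. The labels name the genotype, whereas IR or non-IR is given only by title letters, which were matched to the 4 groups of the methods. The 3 libraries of a group are called independent samples without naming the animal. The p-values therefore weigh each difference between groups against the spread between these samples.

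Between 16601154 and 24841291 reads per library were assigned to genes, and the 10 chaperonin genes had 1001 to 12766 reads each per library. The mouse Slit2 gene was listed at 0.0847 to 0.813 FPKM (fragments per kilobase of gene, scaled between libraries by size factors). It did not separate the labelled genotypes, with 0.195 ± 0.023 FPKM in C57-non-IR and 0.178 ± 0.0080 FPKM in Slit2-non-IR hearts (SD, n = 3). It was 0.243 ± 0.035 FPKM in C57-IR hearts, and 0.153, 0.813 and 0.0847 FPKM in Slit2-IR hearts. Slit2-IR replicate 2 stood apart in this row, with 498 reads against 48 to 125 in the other 11 libraries. The transgene is a human cDNA with no row of its own among the mouse genes, so this row does not check the genotype labels. All 7 cardiomyocyte markers were above 0 in every library, with summed levels of 8395 to 12426 FPKM. The library Slit2-IR replicate 1 stood apart by its atrial transcripts. Its 6 atrial markers summed to 1714 FPKM, against 19.9 to 233 FPKM in the other 11 libraries, and the atrial myosin light chain Myl7 alone was at 1049 FPKM there. Values without this library are given for the main results of the members. No gene of the 11 marker lists passed the adjusted limma threshold for the mean IR difference, and markers of neutrophils (0.159 to 1.39 FPKM in sum) and skeletal muscle (0.376 to 1.11 FPKM) were near 0, with Ly6g and Myh4 at 0 in every library.

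Hspd1 (chr1:55077835-55088243, minus strand) and Hspe1 (chr1:55088132-55091307, plus strand) lie head to head in the GRCm38 coordinates of the files. The starts of their principal transcripts in GENCODE M21 have 107 bases between them, and the annotated genes overlap by 112 bases. A RefSeq promoter window (250 bases before to 50 bases after a start, GRCm38.p6) of each gene holds the same heat shock element, the repeat recognised by heat shock factors. It was searched as alternating TTC and GAA units 2 bases apart, on both strands, and the 4-unit form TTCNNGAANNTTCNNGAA is present once between the genes, at chr1:55088059-55088076. It is printed from either gene's strand, with the units in capitals, because both genes share it and no CCT window holds it.

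Hspe1 (chr1:55088053-55088082, plus strand): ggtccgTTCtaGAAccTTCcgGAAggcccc

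Hspd1 (the same bases, minus strand): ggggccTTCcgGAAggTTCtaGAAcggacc

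The centre of the element lay 64.5 bases before the principal start of Hspe1 and 43.5 bases before that of Hspd1, within an annotated exon of another Hspd1 transcript. Of 32817 RefSeq windows, 5 (0.0152%) held this 4-unit form, those of Hspd1 and Hspe1 among them. A form of 3 units (TTCNNGAANNTTC or GAANNTTCNNGAA) was present in 198 windows (0.603%), and one of 2 units (TTCNNGAA or GAANNTTC) in 4940 windows (15.1%). The longer forms contain the shorter ones.

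Windows were given for 7 of the 8 CCT genes (Cct4 had none). No CCT window held a form of 3 units, and 3 of the 7 genes held a form of 2 units. These were Cct2, Cct5 and Cct6a, whose sites are shown for comparison with the element above.

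Cct2 (chr10:117063399-117063428, minus strand): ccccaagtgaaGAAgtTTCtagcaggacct

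Cct5 (chr15:31601862-31601891, minus strand): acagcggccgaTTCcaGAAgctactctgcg

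Cct6a (chr5:129787369-129787398, plus strand): gcgtaagacttTTCgaGAAgaccccgcaga

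Relative to a RefSeq start, the sites were centred at -38.5 bases for Cct2, -30.5 for Cct5 and 27.5 for Cct6a. The Cct2 site lay in no annotated exon, the Cct5 site in an exon of the neighbouring gene Fam173b, and the Cct6a site in exons of Cct6a and of Psph on the opposite strand. Among the 26994 genes with a window, 17.0% held a form of 2 units and 0.663% one of 3 units. A match describes the letters of the window only. Whether a factor binds there was not measured.

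The levels of the 10 genes were first set side by side. On the scale of the deposited FPKM, Hspd1 was highest, with a mean of 153 ± 23.3 FPKM over the 12 libraries (SD), and Hspe1 followed with 107 ± 22.9 FPKM. Hspd1 exceeded Hspe1 in all 12 libraries, and the lowest Hspe1 value (78.5 FPKM) lay above the highest value of any CCT gene (44.5 FPKM, Cct2). The CCT genes formed a higher trio of Cct2 (38.4 ± 3.29 FPKM), Cct8 (37.7 ± 1.79) and Cct5 (35.6 ± 2.64), whose ranges overlapped, and a lower set of Cct4 (24.2 ± 2.17), Tcp1 (22.0 ± 0.941), Cct6a (19.2 ± 2.07), Cct7 (18.6 ± 1.61) and Cct3 (15.4 ± 1.56 FPKM). Neighbours within the lower set overlapped in range, whereas Cct5 and Cct4 did not. All 10 genes were in the upper part of the tested genes, from percentile 84.1 (Cct3) to percentile 98.1 (Hspd1) of the mean FPKM.

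This order rested on the gene length used. The length in the files exceeded that of the principal transcript 1.09 times for Hspd1 and 1.90 times for Hspe1. Among the CCT genes it did so most for Cct3 (6370 against 1977 bases) and Cct7 (6778 against 2441 bases). After rescaling to the principal transcript, a choice made after seeing the data, Hspe1 had the highest level at 204 ± 43.6, above Hspd1 (167 ± 25.4) in 10 of 12 libraries. Of the CCT genes, Cct5, Cct7, Cct2, Cct3, Cct8 and Tcp1 then lay between 54.0 and 45.3 with overlapping ranges between neighbours, followed by Cct4 (40.9 ± 3.67). Cct6a was lowest at 28.3 ± 3.05, below Cct4 in all 12 libraries and with no overlap of their ranges. Within a library, the highest CCT gene exceeded the lowest 2.26 to 2.93 times on the deposited scale and 1.73 to 2.42 times per principal transcript length.

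Cct6a differs from the other CCT genes in its annotation, since the files and GENCODE M21 list it as a processed transcript with no coding model, and its longest basic transcript stood in for a principal one. The other 9 genes are listed as protein coding, with coding regions of 535 to 573 codons for Hspd1 and 7 CCT genes and of 102 codons for Hspe1. The annotated genes Tcp1, Cct6a, Cct7 and Cct8 overlap protein-coding genes on the opposite strand (Mrpl18 and Acat3, Psph, Pradc1 and Usp16). Whether strand was used in counting is not given in the sources used here, so reads from these overlaps, and from that of Hspd1 with Hspe1, cannot be assigned with certainty.

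**Figure D1:**
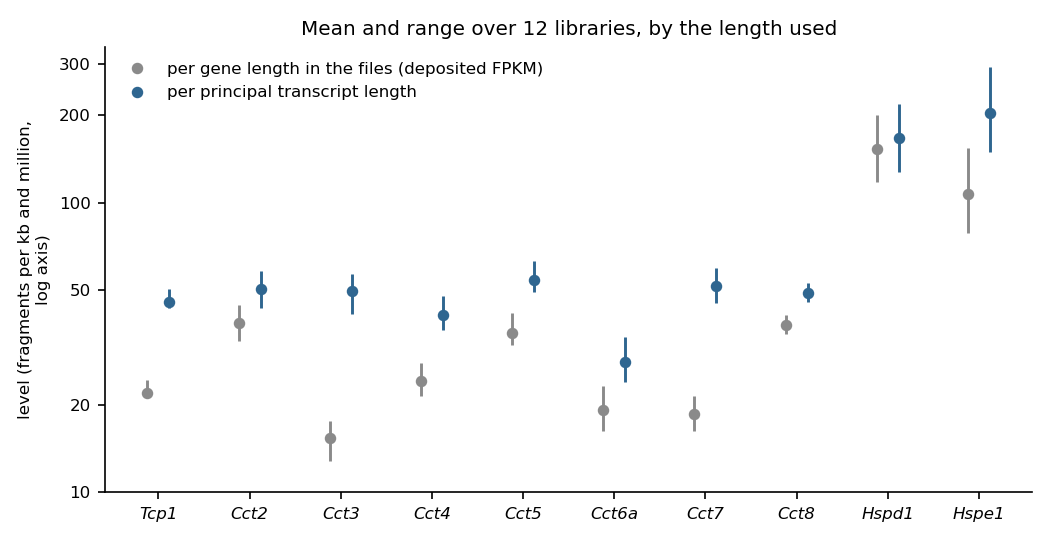
Level of each of the 10 genes (vertical log axis, FPKM or the same per principal transcript) as the mean (point) and the range (line) over 12 libraries, computed per gene length in the files (grey) or per principal transcript length (blue). When the transcript length is used, Cct4 and Tcp1 of the lower CCT set move up toward Cct2, Cct5 and Cct8. Cct3 and Cct7 move up to lie among Cct2, Cct5 and Cct8, and Cct6a becomes the lowest in place of Cct3.

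The first comparison asked how IR changed the chaperonin genes in C57BL/6J hearts. Hspd1, the HSP60 gene, was at 117, 139 and 151 FPKM in C57-non-IR hearts and at 170, 160 and 178 FPKM in C57-IR hearts. All 3 C57-IR libraries lay above all 3 C57-non-IR libraries. The log2 difference, on the scale of log2(FPKM + 1) as throughout, was 0.32 (SE 0.12, 1.25-fold, 95% interval 0.053 to 0.59), with an unadjusted p of 0.0233 and an adjusted p of 0.420 by limma over 15258 tested genes.

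Hspe1, the gene of the HSP10 lid, was at 88.7, 94.1 and 105 FPKM in C57-non-IR and at 97.0, 125 and 134 FPKM in C57-IR hearts. The groups overlapped, as C57-IR replicate 1 lay below C57-non-IR replicate 3. The log2 difference was 0.29 (SE 0.15, 1.22-fold, interval -0.037 to 0.62, limma adjusted p = 0.640). In whole hearts, a change in the number of cells of a type and a change in RNA per cell cannot be told apart.

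Among the 8 CCT genes, the log2 differences between C57-IR and C57-non-IR hearts ranged from 0.080 (Cct5) to 0.16 (Cct6a), with a median of 0.11 against 0.0013 for all tested genes, and every interval included 0. Leaving out 1 library moved several of these values by over 1.5 times. Cct5 was at 0.0053 without C57-IR replicate 3, Cct3 at 0.0044 without C57-non-IR replicate 2, and Cct6a at 0.064 without C57-non-IR replicate 1 and at 0.24 without C57-non-IR replicate 3. Their lowest limma adjusted p was 0.690, for Cct8. That gene was at 38.1, 35.2 and 36.0 FPKM in C57-non-IR and at 38.9, 40.8 and 39.99 FPKM in C57-IR hearts, and the groups did not overlap.

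Of the 10 genes, 0 passed an adjusted p of 0.05 in C57-IR against C57-non-IR hearts in limma (0.387% of tested genes were called higher and 0.0524% lower). At an unadjusted p under 0.05, 1 of the 10, Hspd1, was higher (4.54% of tested genes) and 0 were lower (4.42%). The groups did not overlap for 3 of the 10 (Tcp1, Cct8 and Hspd1), against 6.74% of tested genes that were higher without overlap, and 0 were lower without overlap (7.02%). All 10 log2 differences were above 0, as were those of 50.4% of tested genes. The summed level of the 5 red cell markers was 1.47 to 6.79 FPKM in C57-IR and 8.35 to 16.2 FPKM in C57-non-IR hearts, with Hba-a2 and Hbb-bt at 0 in some libraries of the series. The summed level of the 6 atrial markers was 85.8 to 233 FPKM in C57-IR and 19.9 to 87.0 FPKM in C57-non-IR hearts, with Bmp10, Mybphl and Sln at 0 in some libraries. Of the 5 adipose markers, each at 0 in some libraries, 4 had a limma p below 0.05 before adjustment, all higher with IR, and 0 passed after it. Their sum was 0.105, 14.1 and 17.2 FPKM in C57-IR and 0 to 0.847 FPKM in C57-non-IR hearts. The part of these lists in the chaperonin values was not tested.

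**Figure D2:**
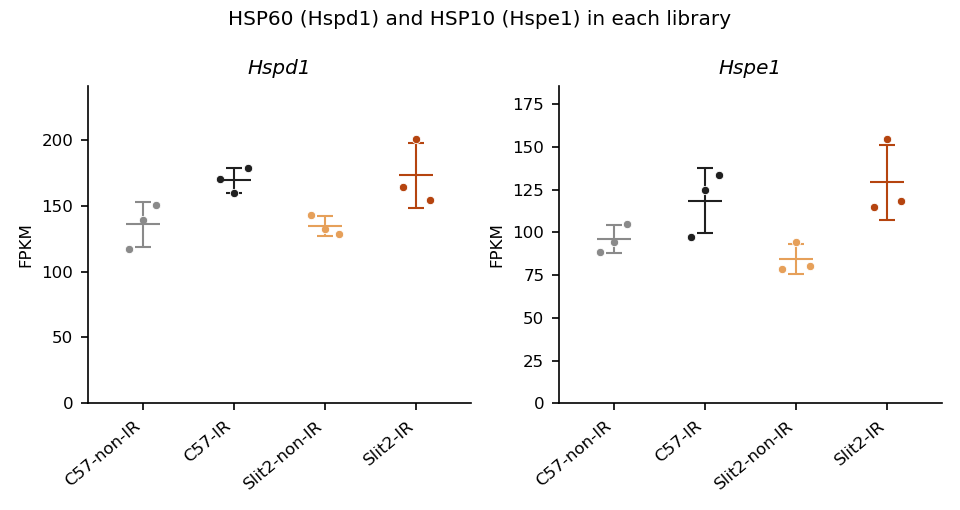
FPKM of Hspd1 (left) and Hspe1 (right) in each of the 12 libraries (points), with the mean and SD of each group of 3 (bars). IR libraries lie above the non-IR libraries of the same genotype for Hspd1 in both genotypes and for Hspe1 in Slit2-Tg hearts, whereas 1 C57-IR library overlaps the C57-non-IR values for Hspe1.

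The second comparison asked the same of Slit2-Tg hearts. Hspe1 was at 78.5, 94.3 and 80.1 FPKM in Slit2-non-IR and at 115, 155 and 118 FPKM in Slit2-IR hearts. Every Slit2-IR library exceeded every Slit2-non-IR library. The log2 difference was 0.60 (SE 0.15, 1.52-fold, interval 0.27 to 0.93), with an unadjusted p of 0.00199 and an adjusted p of 0.113 by limma. When same-numbered libraries were blocked, the limma adjusted p was 0.0459 and Hspe1 passed the threshold. Without Slit2-IR replicate 1, the library with the high atrial markers, the difference was 0.68 (limma adjusted p = 0.193), and without Slit2-IR replicate 2 it was 0.47 (limma adjusted p = 0.265).

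Hspd1 was at 143, 132 and 129 FPKM in Slit2-non-IR and at 164, 201 and 154 FPKM in Slit2-IR hearts. The groups did not overlap, and Slit2-IR replicate 2 was the highest library of the series for Hspd1 as it was for Hspe1. The log2 difference was 0.35 (SE 0.12, 1.28-fold, interval 0.082 to 0.62, limma adjusted p = 0.277), 0.39 without Slit2-IR replicate 1 and 0.24 without Slit2-IR replicate 2.

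Among the CCT genes, the log2 differences between Slit2-IR and Slit2-non-IR hearts ranged from 0.024 (Cct4) to 0.17 (Cct2), with a median of 0.10 against 0.0052 for all tested genes. Without Slit2-IR replicate 1 they ranged from 0.027 (Tcp1) to 0.23 (Cct2), and that of Cct7 moved from 0.12 to 0.067. Cct2 was at 33.3, 36.5 and 36.4 FPKM in Slit2-non-IR and at 36.7, 39.9 and 43.6 FPKM in Slit2-IR hearts. The Cct2 groups did not overlap, by a margin of less than the SD of either group, and its limma adjusted p was 0.550, the lowest of the CCT genes. Cct8 was at 36.5, 36.3 and 35.5 against 38.1, 38.7 and 38.3 FPKM, so that Cct8 was higher without overlap in both genotypes, with log2 differences of 0.13 and 0.086.

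Of the 10 genes, 0 passed an adjusted p of 0.05 between Slit2-IR and Slit2-non-IR without the block (0.426% of tested genes were called higher and 0.0786% lower by limma). At an unadjusted p under 0.05, Hspd1 and Hspe1 were higher and no CCT gene was (6.15% of tested genes), and 0 of the 10 were lower (5.05%). The groups did not overlap for 4 of the 10 (Cct2, Cct8, Hspd1 and Hspe1, against 8.64% of tested genes), all of them higher in Slit2-IR, with 8.31% of tested genes lower without overlap. All 10 differences were above 0 (51.6% of tested genes). The atrial markers summed to 67.3 to 1714 FPKM in Slit2-IR and 40.001 to 106 FPKM in Slit2-non-IR hearts. Cct8 and Hspd1 were the 2 of 10 genes that were higher without overlap in both genotypes, as 2.93% of tested genes were.

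**Figure D3:**
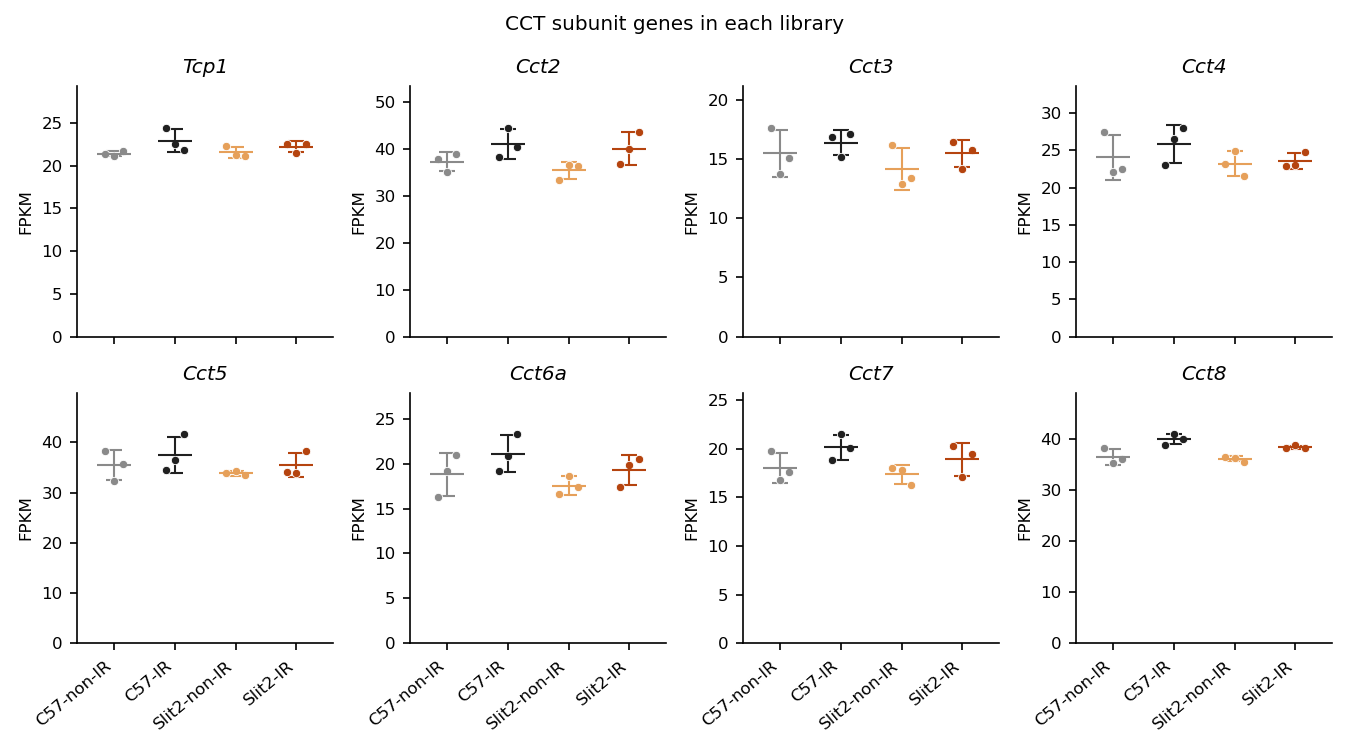
FPKM of the 8 CCT subunit genes in each of the 12 libraries (points), with the mean and SD of each group of 3 (bars) and each vertical axis starting at 0. The 4 groups of a gene lie at nearly the same height, and for Cct8 the IR libraries lie above the non-IR libraries in both genotypes.

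Over both genotypes, the mean log2 difference of IR against non-IR hearts used all 12 libraries. Hspe1 rose with IR by this measure, with a mean log2 difference of 0.45 (SE 0.11, 1.36-fold, interval 0.21 to 0.68) and a limma adjusted p of 0.0445. It was the only one of the 10 to pass (2.33% of tested genes were called higher and 1.15% lower). The call was close to the threshold. The adjusted p ranged from 0.0134 to 0.118 over 18 alternatives, it was 0.0947 when genes with few reads were kept in the test, and the call was lost when any of 11 of the 12 libraries was left out (adjusted p of 0.0542 to 0.118), C57-IR replicate 1 being the exception. Without Slit2-IR replicate 1 the difference was 0.49, with an adjusted p of 0.0544. The mean log2 difference of Hspd1 was 0.34 (SE 0.087, 1.26-fold, interval 0.15 to 0.53), and its limma adjusted p of 0.0616 was just above the threshold (0.0957 without Slit2-IR replicate 1).

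The CCT genes had mean log2 differences with IR of 0.063 (Cct4) to 0.15 (Cct2), with a median of 0.11 against 0.0035 for all tested genes. Without Slit2-IR replicate 1 they were 0.060 (Tcp1) to 0.18 (Cct2). Cct2 had an unadjusted p of 0.0403 and the lowest limma adjusted p of the CCT genes, 0.283. Together with Hspd1 and Hspe1 this made 3 of 10 genes that were higher at an unadjusted p under 0.05, as were 7.92% of tested genes, while 0 were lower (7.96%). All 10 differences were above 0 (51.2% of tested genes). The highest upper bound of the CCT intervals was 0.32, reached by Cct6a, and the lowest lower bound was -0.10, for Cct4. The interval lay above 0 for Cct2 and included 0 for the other 7 CCT genes.

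The next question was whether Slit2 altered the levels of these genes. In hearts without IR, the CCT log2 differences of Slit2-non-IR against C57-non-IR ranged from -0.12 (Cct3) to 0.012 (Tcp1). Hspd1 differed by -0.0076 (interval -0.28 to 0.26) and Hspe1 by -0.19 (SE 0.15, interval -0.51 to 0.14). The groups overlapped for all 10 genes (4.61% of tested genes were higher and 4.57% lower without overlap), and Tcp1 alone had a difference above 0 (48.9% of tested genes). Of the 10, 0 had an unadjusted p under 0.05 in limma (1.42% of tested genes were higher and 1.76% lower at that level). None of the 10 passed the adjusted threshold, as 0.0393% of tested genes did with higher and 0% with lower levels.

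After IR, the CCT log2 differences of Slit2-IR against C57-IR hearts ranged from -0.12 (Cct6a) to -0.033 (Cct2), and all 8 were below 0, with a median of -0.077 against -0.00016 for all tested genes. Hspd1 differed by 0.021 (interval -0.25 to 0.29) and Hspe1 by 0.12 (SE 0.15, interval -0.21 to 0.45). Hspd1 and Hspe1 were thus the 2 of 10 with a difference above 0 (49.9% of tested genes). None of the 10 passed the adjusted threshold in limma (0.0328% of tested genes were called higher and 0.0131% lower). At an unadjusted p under 0.05, 0 of the 10 differed (1.78% of tested genes were higher and 1.38% lower), and the lowest unadjusted p was 0.277, for Cct4. Cct8 was the only one of the 10 whose groups did not overlap, at 38.1 to 38.7 FPKM in Slit2-IR and 38.9 to 40.8 FPKM in C57-IR hearts (3.43% of tested genes were lower and 3.04% higher without overlap). Without Slit2-IR replicate 1 the difference of Cct2 was 0.027, above 0, and those of Hspd1 and Hspe1 were 0.055 and 0.20. Mitochondrial genes took 19.7% to 23.8% of reads in Slit2-IR and 25.4% to 26.0% in C57-IR hearts. Without IR they took 22.0% to 23.3% in Slit2-non-IR and 23.9% to 25.3% in C57-non-IR hearts. The part of this share in the differences between the genotypes was not tested.

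The interaction of Slit2 and IR, the difference between the IR effects of the genotypes, was tested directly. It was 0.31 for Hspe1 (SE 0.21, interval -0.16 to 0.77, 0.172 before and 0.9998 after adjustment of the limma p) and 0.029 for Hspd1 (SE 0.17, interval -0.35 to 0.41). The Hspe1 value was 0.17 without C57-IR replicate 1, also 0.17 without Slit2-IR replicate 2, and 0.39 without Slit2-IR replicate 1. The CCT interactions ranged from -0.079 (Cct4) to 0.042 (Cct3). It was above 0 for 4 of the 10 genes (51.2% of tested genes). Of the 10, 0 had an unadjusted p under 0.05, as 1.07% of tested genes did above 0 and 0.773% below, and 0% of tested genes passed the adjusted threshold in either direction. The larger IR difference of Hspe1 in Slit2-Tg hearts was within the error of the comparison.

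**Figure D4:**
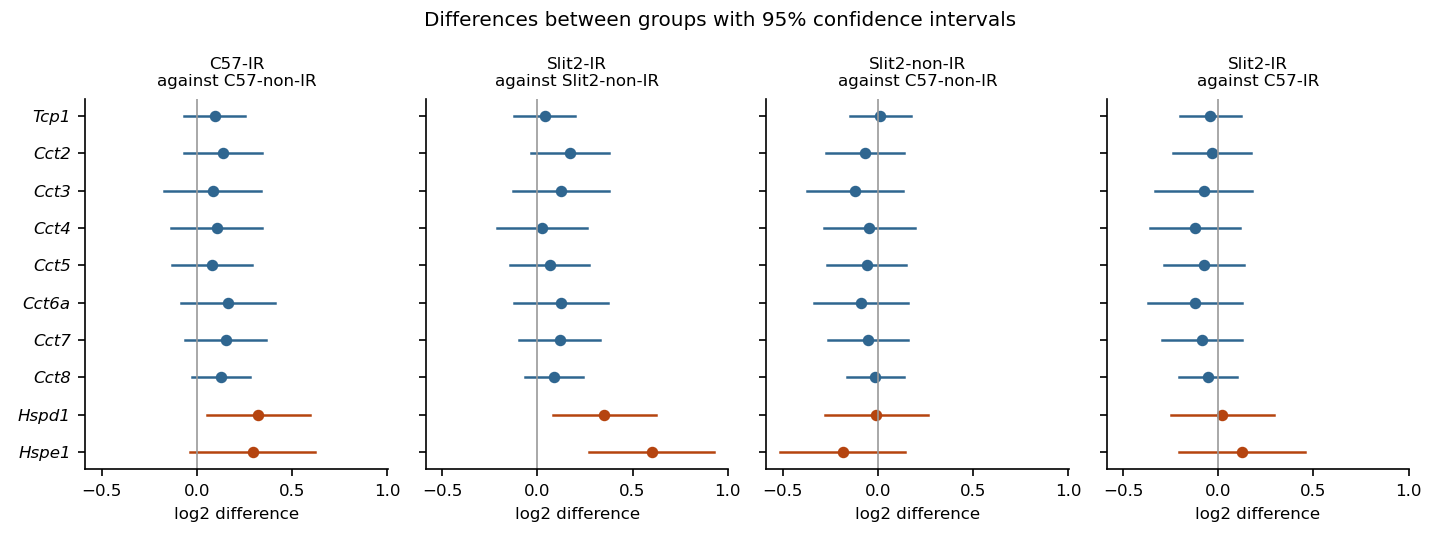
Log2 differences on the log2(FPKM + 1) scale (points) with 95% confidence intervals (lines) for the 8 CCT genes (blue) and Hspd1 and Hspe1 (red) in the 4 pairwise comparisons. In both IR comparisons all points lie right of 0 and those of Hspd1 and Hspe1 lie farthest, whereas in both comparisons of the genotypes all intervals include 0.

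How the members varied together was described across the 12 libraries. The 28 pairs of CCT genes had a median Pearson r of 0.53 on log2(FPKM + 1), from -0.024 (Cct3 and Cct6a) to 0.85 (Cct4 and Cct5), and 27 of 28 were above 0. The r of Hspd1 with Hspe1 was 0.83. The 16 pairs of a CCT gene with Hspd1 or Hspe1 had a median of 0.38 and reached 0.71 for Cct2 and Hspe1. When the group means were removed these medians were 0.37 for CCT pairs, 0.56 for Hspd1 and Hspe1, and -0.25 between the 2 sets. These correlations describe 12 libraries that share groups and scaling, and were not tested.

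The ratio of Hspd1 to Hspe1 on the deposited FPKM scale was 1.28 to 1.82 over the libraries. It was 1.61 ± 0.21 in Slit2-non-IR and 1.34 ± 0.072 after IR in the same genotype (SD, n = 3), with overlapping ranges. In C57BL/6J hearts it was 1.41 ± 0.081 without IR and 1.46 ± 0.26 after IR. On the transcript length scale the ratio was 0.732 to 1.04.

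The genes with the profile most like that of the CCT mean over the 12 libraries were Adcy4 (r = 0.906), an adenylyl cyclase, Gnl2 (0.876), Cdr2l (0.874), Katna1 (0.869), a subunit of the microtubule-severing enzyme katanin, and Dad1 (0.868). For Hspd1 they were Pcdh9 (r = 0.913), Tmed7 (0.899), Mapk6 (0.898), the sterol demethylase Cyp51 (0.894) and the Hsp110 gene Hsph1 (0.880). For Hspe1 they were Actb (r = 0.932), the pseudogene Gm15542 (0.922), Zfp948 (0.922) and Lrrc32 (0.922). These are among the highest of 15258 values and are given as a description.

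The related genes of the chaperonin fold were examined next. Mkks, which with Bbs10 and Bbs12 belongs to the chaperonin-like proteins of Bardet-Biedl syndrome, was at 17.4 to 20.4 FPKM, close to the lower CCT set, and its mean log2 difference with IR was -0.031 (SE 0.054, limma adjusted p = 0.867). Bbs10 was at 0.443 to 0.608 FPKM in C57-non-IR and 0.266 to 0.438 FPKM in C57-IR hearts, and at 0.540 to 0.713 FPKM in Slit2-non-IR and 0.178 to 0.338 FPKM in Slit2-IR hearts. The groups did not overlap in either genotype. Bbs10 fell with IR over both genotypes, with a mean log2 difference of -0.27 (SE 0.053) and a limma adjusted p of 0.0190. Its library counts were only 11 to 55 reads, and the difference was -0.73 with a pseudocount of 0.1 and -0.89 with limma-voom on recovered reads. The call was kept in 13 of 18 alternatives and lost when any of 4 libraries was left out (replicates 2 and 3 of C57-non-IR, replicate 2 of C57-IR and replicate 3 of Slit2-non-IR) and when genes with few reads were kept. Bbs12 was at 0.153 to 0.635 FPKM with a mean difference of -0.062 (SE 0.072). Cct6b had 2 to 9 reads per library and Cct8l1 0 to 2, too few to be tested.

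Among the partners of CCT (prefoldin subunits, phosducin-like proteins and Txndc9), 0 of 9 passed the adjusted threshold for the mean IR difference, with a median of 0.036. The prefoldin genes Vbp1 (mean log2 difference 0.16, SE 0.079) and Pfdn2 (0.12, SE 0.063) had the lowest p-values of the list for this difference. Pfdn2 was also lower in Slit2-non-IR (16.6 to 17.6 FPKM) than in C57-non-IR hearts (19.4 to 22.4 FPKM) without overlap, as were 4.57% of tested genes. Among 19 client genes (actins, tubulins and other proteins folded by CCT), 5 rose with IR in the mean over both genotypes and 0 fell. Of tested genes, 2.33% were called higher and 1.15% lower by this measure. In C57BL/6J or Slit2-Tg hearts alone, 0 of the 19 passed (0.387% and 0.426% of tested genes were called higher). Actg1, the cytoplasmic gamma actin, was at 90.3 ± 6.15 FPKM in C57-non-IR and 201 ± 64.5 FPKM in C57-IR hearts (SD, n = 3). In Slit2-Tg hearts it was at 85.1 ± 6.52 FPKM without and 192 ± 48.3 FPKM with IR. Over both genotypes, the mean log2 difference of Actg1 was 1.12 (SE 0.16, limma adjusted p = 0.00445). The beta tubulin Tubb6 had a mean difference of 0.73 (SE 0.13, limma adjusted p = 0.0114). The others, named after their values were seen, were Actb (0.81), Tuba4a (0.48) and Tuba1b (0.40). The median of the client list was 0.27, and no gene of the list had a mean difference below 0. The median IR difference was 0.18 in C57BL/6J and 0.40 in Slit2-Tg hearts. The interaction was above 0 for 18 of the 19 (51.2% of tested genes), with 0 at an unadjusted p under 0.05 in limma (1.07% of tested genes). Without IR, Slit2-non-IR against C57-non-IR had a median of -0.19, with 3 genes lower at that level (1.76% of tested genes).

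The partners of HSP60 and HSP10 in the mitochondrion were described in the same way. Of 15 mitochondrial chaperones and proteases, 0 passed the adjusted threshold for the mean IR difference, and the median was 0.036. The nucleotide exchange factor Grpel2 had the lowest p, with a mean log2 difference of -0.32 (SE 0.12, unadjusted p = 0.0213, limma adjusted p = 0.201), followed by the protease subunit Spg7 (0.091, SE 0.077). Of 12 genes of mitochondrial protein import, 0 passed and the median was 0.013, with values of -0.085 for Timm50 and 0.054 for Timm17a. Of 5 transcription factors of stress responses, 0 passed. The stress factors Ddit3 (0.73, SE 0.23, unadjusted p = 0.00872 in limma) and Atf4 (0.68, SE 0.24, unadjusted p = 0.0167 in limma) were the 2 with an unadjusted p under 0.05.

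A reference list of cytosolic heat shock genes gave the scale for the chaperonin values. In the mean over both genotypes 10 of 12 rose with IR (2.33% of tested genes were called higher and 1.15% lower), with a median log2 difference of 1.65, and Ahsa1 and Chordc1, named after their values were seen, did not pass. Hspa1b, an inducible HSP70 gene, was at 3.41 ± 0.25 FPKM in C57-non-IR and 540 ± 149 FPKM in C57-IR hearts, and at 6.14 ± 5.03 and 748 ± 151 FPKM in Slit2-Tg hearts without and with IR (SD, n = 3). Its mean log2 difference was 6.91 (SE 0.27, limma adjusted p = 2.20e-07), and that of its near-identical copy Hspa1a was 5.94 (SE 0.23), with the division of reads between the copies uncertain. The value of Hspe1 (0.45) lay near that of Hsp90ab1 (0.40), the smallest among the 10 that rose and likewise named after the values were seen, and the value of every CCT gene lay below those of all 12 heat shock genes. In the promoter windows, 7 of the 9 heat shock genes with a window held a form of 2 heat shock element units. A form of 3 units was held by 2 of them (Chordc1 and Hsph1), and the 4-unit form by 1 of these 2. Units with other letters or spacing, and sites outside the windows, were not searched, so a gene without a match may still hold such an element. Hspd1 and Hspe1 both held the 4-unit form, through the 1 site that they share.

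**Figure D5:**
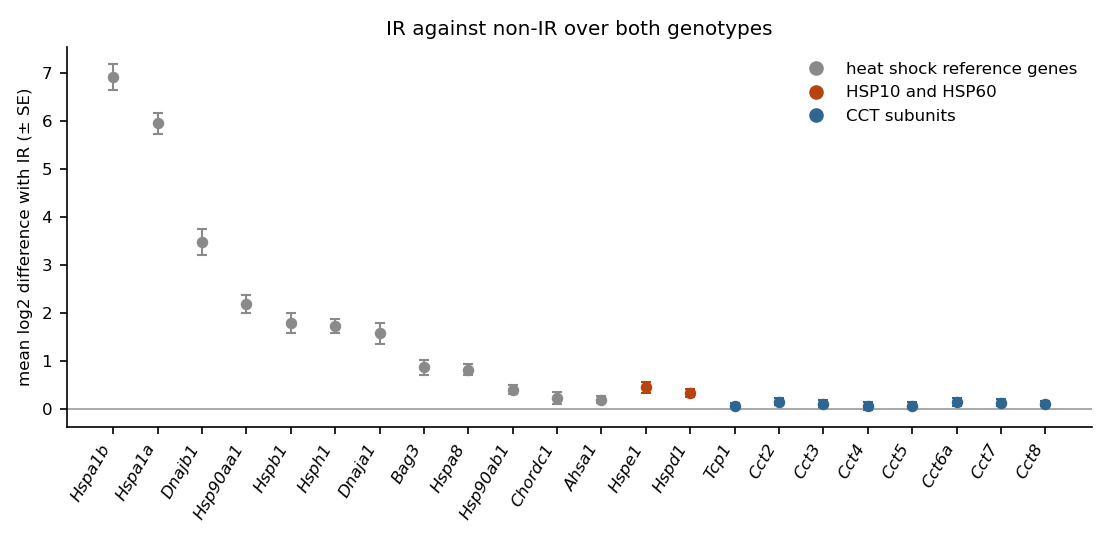
Mean log2 difference of IR against non-IR hearts over both genotypes (points, with SE) for the 12 heat shock reference genes (grey), Hspe1 and Hspd1 (red) and the 8 CCT genes (blue). Hspa1b and Hspa1a reach 6.91 and 5.94, Hspe1 and Hspd1 lie at 0.45 and 0.34, and the CCT genes lie between 0.063 and 0.15.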

How the data were processed

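The authors isolated total RNA with TRIzol, made libraries with the NEBNext Ultra kit and sequenced paired ends. Per the submitters' processing notes, HISAT2 and mm10 were used; the counter, the annotation release and the strand setting are not given in the sources used here. The deposited values are FPKM per gene and library, in 4 tables with 0 unused columns of per-library values. FPKM times gene length gave whole reads (within 0.05) for 100% of values, and the scaling matched median-of-ratios size factors. Groups were compared with limma 3.58.1 (R 4.3.3, variance trend) on log2(FPKM + 1), 12 libraries in 1 fit, which understates fold changes of low genes. The 15258 tested genes had the equivalent of 10 reads in at least 3 libraries and 15 in all. P-values were adjusted across these genes by Benjamini-Hochberg (threshold 0.05). Tests are two-sided. No libraries of a group agreed within sampling noise (chi-square per gene at least 8.25). Same-numbered libraries deviated together in all 3 pairs (r over 0.1) for Slit2-IR against Slit2-non-IR (0.142 to 0.295) and against C57-IR (0.154 to 0.362), so blocked values are given there where they changed a call. That pairing rests on these values alone, with no litter or day in the labels. Named genes were the 10 members, their relatives, the 2 genes of each other list with the lowest p for the mean IR difference, and the 5 most correlated genes per profile, of which 1 is not reported here. The members and lists were chosen with earlier results of these data known. Promoter sequences are from RefSeq (GRCm38.p6), with a window for 9 of the 10 members. Genes were annotated with GENCODE M21, whose coordinates equalled those of the files for 9 of the 10 (not Cct5). Alternatives were a pseudocount of 0.1, other filters, TMM scaling, a replicate block, only the 6 libraries compared, limma-voom on recovered reads and leaving out each library.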

Additional observations from a re-analysis of the deposited data

How the results depend on the processing

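The 10 genes were recomputed under 19 alternatives per pairwise comparison and 18 for the interaction and the mean, and 1067 of 1120 values kept their direction and their side of the threshold. Many of these could not change direction. The other filters, the block, the fit of only the 6 libraries compared and leaving out a library outside the comparison do not alter a pairwise log2 difference. Such values bear only on the call, so the count does not measure how stable the directions are. The number of the 10 genes called was 0 in every pairwise comparison under each alternative, except for 1 (Hspe1, 0.60 and adjusted p 0.0459 in limma) between Slit2-IR and Slit2-non-IR with the replicate block. For the mean IR difference it was 1, and 0 without a filter on low reads, where 28242 genes were tested, and 0 to 1 when single libraries were left out. The block changed no other call among the 10. Counts over all tested genes moved more. Against 67 in C57-IR against C57-non-IR hearts there were 7 without the filter, 9 with only the 6 libraries compared, 171 with the replicate block, 32 with limma-voom and 3 to 254 with libraries left out. Against 77 between Slit2-IR and Slit2-non-IR there were 19 without the filter, 194 with the block, 121 with limma-voom and 4 to 178 with libraries left out. Against 6 in Slit2-non-IR against C57-non-IR hearts there were 10 with a pseudocount of 0.1, 11 without the filter, 3 with at least 10 reads in every library, 2 with the block and 1 to 14 with libraries left out. Against 7 in Slit2-IR against C57-IR hearts there were 3 with at least 10 reads in every library, 4 with only the 6 libraries compared and 4 to 12 with libraries left out. For the interaction, 0 became 4 without the filter and 0 to 1 with libraries left out, and for the mean IR difference 531 became 299 without the filter and 329 to 713 with libraries left out. The causes were not tested. Signs reversed only when a library was left out, for 16 results that were not called, and other uncalled values also moved by over 1.5 times, such as the interaction of Hspe1 (0.173 to 0.402) and the C57-IR difference of Cct5 (0.005 to 0.135). Between Slit2-IR and Slit2-non-IR the leave-out range was -0.027 to 0.075 for Cct4. In Slit2-non-IR against C57-non-IR hearts the ranges were -0.011 to 0.025 for Tcp1, -0.099 to 0.053 for Cct4, -0.102 to 0.011 for Cct7, -0.037 to 0.019 for Cct8 and -0.108 to 0.071 for Hspd1. In Slit2-IR against C57-IR hearts they were -0.077 to 0.001 for Tcp1, -0.094 to 0.027 for Cct2, -0.090 to 0.099 for Hspd1 and -0.012 to 0.217 for Hspe1. For the interaction they were -0.024 to 0.097 for Cct2, -0.051 to 0.136 for Cct3, -0.071 to 0.058 for Cct5, -0.115 to 0.061 for Cct6a, -0.098 to 0.035 for Cct7 and -0.083 to 0.129 for Hspd1. The 2 libraries left in a group took their spread from all groups. In data simulated for C57-IR against C57-non-IR hearts with 15258 genes, 91 of 100 genes changed 2-fold and 18 of 100 changed 1.5-fold were called. Smaller changes were not simulated. Every simulated gene had the same preset spread, which was not estimated from these data. The rates therefore do not give the power for a member, since in C57-non-IR hearts the SD was 1.52% of the mean for Tcp1 and 12.9% for Cct3.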

Other observations

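Of the 11 pseudogenes that carry a member's symbol in the tables, Hspd1-ps3 was the only one with more than 10 reads in any library. It was at 3.09 to 12.9 FPKM (115 to 513 reads per library), with 7.39 ± 3.94 FPKM in C57-non-IR, 7.17 ± 2.23 in C57-IR, 10.01 ± 2.62 in Slit2-non-IR and 7.32 ± 2.12 FPKM in Slit2-IR hearts (SD, n = 3). Its mean log2 difference with IR was -0.18 (SE 0.26, limma adjusted p = 0.835), against 0.34 for Hspd1. Reads of near-identical copies can be placed at either gene, and how such reads were counted is not given in the sources used here, so the division between Hspd1 and Hspd1-ps3 is uncertain. At most 513 reads lay on the pseudogene, against 5282 to 12766 on Hspd1.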
